A study of Arabidopsis thaliana with 10 samples.

Results

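The comparison described here set untreated leaves of Ri17, an Arabidopsis thaliana line in the Col-0 background carrying an RNA interference construct against JAV1, against untreated leaves of wild-type Col-0. It used 2 of the 10 Affymetrix ATH1 arrays of the study, 1 per genotype, from 21-day-old plants grown in MS medium. The other 8 arrays held the same 2 genotypes treated with methyl jasmonate (MeJA, 100 µM) and sampled after 1 h or 4 h, or wounded by crushing 4 rosette leaves and sampled after 30 min or 60 min. Ri17 is a single transgenic line, the promoter driving the construct is not given in the sources used here, and neither genotype had a second untreated array. No difference between these 2 arrays therefore has a replicate error, and none was tested here. The change calls in the authors' deposited table compare the probes within 2 arrays and do not measure the spread between plants. The transcripts were described mainly as families of genes, chosen by words in the deposited probe-set descriptions, and single genes are given as values of these arrays alone. The JAV1 transcript itself was not analysed here.

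JAV1 is a VQ-motif protein, a small plant-specific class of nuclear proteins that bind WRKY transcription factors. It restrains jasmonate-dependent defence, and in Arabidopsis it is degraded when jasmonate signalling is switched on by wounding, herbivores or pathogens. Jasmonate is made from plastid lipids through lipoxygenase, allene oxide synthase, allene oxide cyclase and 12-oxophytodienoate reductase, and its conjugate is perceived by the F-box protein COI1, which releases MYC transcription factors from JAZ repressors. Applied jasmonate is known to slow leaf growth and to lower photosynthetic gene expression.

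Signals are in GCOS units, and a difference is the log2 signal of Ri17 minus that of Col-0, so that 1 is a doubling. Signals under a floor of 37.7 were raised to it, and a difference whose lower signal was under the floor or called Absent is a bound, written "at least". Analysis was limited to the 15382 of 22810 probe sets with a Present call on 2 or more of the arrays, controls left out. Of these, 481 stood at least 1 higher in untreated Ri17 with a Present call there (3.13%), and 374 stood at least 1 lower with a Present call in Col-0 (2.43%). The authors' deposited table gave an Increase call to 12.4% and a Decrease call to 13.6% of the kept probe sets. The median of all kept probe sets was 0.00, with quartiles at -0.30 and 0.29. Of 71 families with at least 5 kept members, 14 had a median above 0.2, 5 had one below -0.2 and 52 lay between.

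The untreated arrays had median signals of 130.6 (Col-0) and 134.1 (Ri17), with 60.7% and 59.1% of probe sets called Present. With probe sets split into 10 equal classes by mean signal, the median difference ran from -0.10 to 0.11 and was highest among the brightest probe sets. The 24 poly-A control probe sets above the floor ran from -0.55 to 0.51 and the 18 hybridisation controls from -0.17 to 0.34. The ratio of 3' to 5' signal of the actin control was high on both arrays, at 11.5 (Col-0) and 12.7 (Ri17). It was 1.94 and 1.95 for GAPDH and 1.99 and 1.73 for ubiquitin. What part RNA quality has in the differences was not tested. Of 13 listed reference symbols, 6 could be matched to a probe set by name. They lay between -0.26 (UBC21) and 0.33 (GAPC2), with a median of 0.01. All 4 leaf markers matched to a probe set by name, of 16 listed symbols, were Present on both arrays. They differed by 0.06 to 0.49, with a summed signal of 74609 in Col-0 and 93446 in Ri17. The root marker and both floral markers so matched were Absent on both arrays. Of 3 matched seed markers only the 12S cruciferin was Present, in Ri17 alone (3.5 in Col-0 and 94.3 in Ri17). Of 6 guard cell, trichome and vascular markers 5 were kept, with differences from -0.52 (KAT1) to 0.99 (FAMA), and their summed signal was 6613 in Col-0 and 7450 in Ri17. In whole leaves, fewer cells of a type and less RNA per cell cannot be told apart, and the part of cell-type markers in the family differences was not tested.

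The family with the highest median in Ri17, of the 71, was the expansins, secreted proteins that loosen cell walls during growth. The median of 15 kept expansin probe sets was 1.09, 13 of the 15 were above 0, 7 stood at least 1 higher (46.7%, against 3.13% of all kept probe sets) and 1 stood at least 1 lower. The authors' deposited table called 12 of them Increase (80%, against 12.4% of all kept probe sets) and 1 Decrease. Among expansins with a single annotated gene, EXPB1 (AT2G20750) had a signal of 56.7 (Absent) in Col-0 and 247.8 in Ri17, a difference of at least 2.13. EXPB3 (AT4G28250) measured 125.3 and 422.9, a difference of 1.75. EXPA15 (AT2G03090) measured 95.6 and 223.6, a difference of 1.23. The beta-expansins were thus the furthest members, while the 13 other expansins had a median of 0.98. EXPA4, at the family median, measured 843.2 and 1797.7, and the brightest member, the probe set described as At-EXP1, measured 6672.3 and 6013.7, a difference of -0.15. EXPA9 (AT5G02260) went the other way, at 363.5 in Col-0 and 175.2 in Ri17 (-1.05). With all 26 described expansins, most of the added ones Absent, the median was 0.58.

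The pectin, cellulose synthase and xyloglucan families had smaller medians, below those of the plastid and ribosomal families described further on. Pectin enzymes, which cut or de-esterify the pectin of the wall, had a median of 0.20 over 75 kept probe sets. Of these, 10 stood at least 1 higher (13.3%, against 3.13% of all) and 3 at least 1 lower (4%, against 2.43%). In a split made after the values were seen, the 12 pectate lyases had a median of 0.55, with 5 higher and 0 lower. The 18 polygalacturonases had one of 0.25, with 4 higher and 1 lower. The 34 pectinesterases had one of 0.10, with 1 higher and 1 lower, shares near those of all kept probe sets. Without a detection filter the pectin enzyme median was 0.00. The pectate lyase AT1G04680 measured 756.6 in Col-0 and 2206.6 in Ri17 (1.54), and AT5G48900 measured 160.4 (Absent) and 526.3 (at least 1.71). Cellulose synthases and related proteins, which make the wall's glucan chains, had a median of 0.29 over 22 probe sets, with 3 higher (13.6%) and 0 lower. The probe set of RSW1, a cellulose synthase of primary walls, lay below 0 (1838.5 and 1524.3, a difference of -0.27), and that of IRX3, which acts in secondary walls, above it (54.9 and 90.5, 0.72). Xyloglucan enzymes, which remodel the polymer that tethers cellulose, had a median of 0.08 over 25 probe sets, with 2 higher and 3 lower, both shares being above those of all kept probe sets.

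Tubulins, the building blocks of the microtubules that guide cellulose deposition, had a median of 0.38 over 19 probe sets. Of these, 15 were above 0 and 2 stood at least 1 higher (10.5%, against 3.13% of all kept probe sets). TUA6 (AT4G14960) measured 1693.4 in Col-0 and 3214.6 in Ri17 (0.92), and TUB6 (AT5G12250) measured 1071.0 and 1849.6 (0.79). TUB1 (AT1G75780) was under the floor and Absent in Col-0 and at 68.4 in Ri17, at least 0.86 higher. The 2 probe sets described as alpha-2/alpha-4 chains stood 1.06 and 1.21 higher. TUA1 (AT1G64740) lay the other way, at 1401.7 and 1149.3 (-0.29), as did AT1G50020 (4828.8 and 4213.1, -0.20). Actins, the other cytoskeletal family, had a median of -0.04 over 24 probe sets, with none past the threshold in either direction.

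Arabinogalactan proteins, glycoproteins of the cell surface, and germin-like proteins, cupin proteins of the wall, rested on few members. The 5 arabinogalactan probe sets had a median of 0.82, but 3 of them were Absent in Col-0 and the other 2 measured 523.4 against 408.5 and 749.6 against 749.4. With the 2 members Present on both arrays the median was -0.18. The 7 kept germin-like probe sets had a median of 0.51 and ran from -0.69 to 4.60, and their median moved to 0.10 with a higher floor and to 0.91 without one. One germin-like probe set without a single annotated gene had the largest value of all the families described most fully, 117.4 in Col-0 and 2852.7 in Ri17. AT3G10080, another germin-like protein, measured 329.4 and 619.2 (0.91), while the brightest member measured 25549.7 and 27406.7 (0.10).

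**Figure D1:**
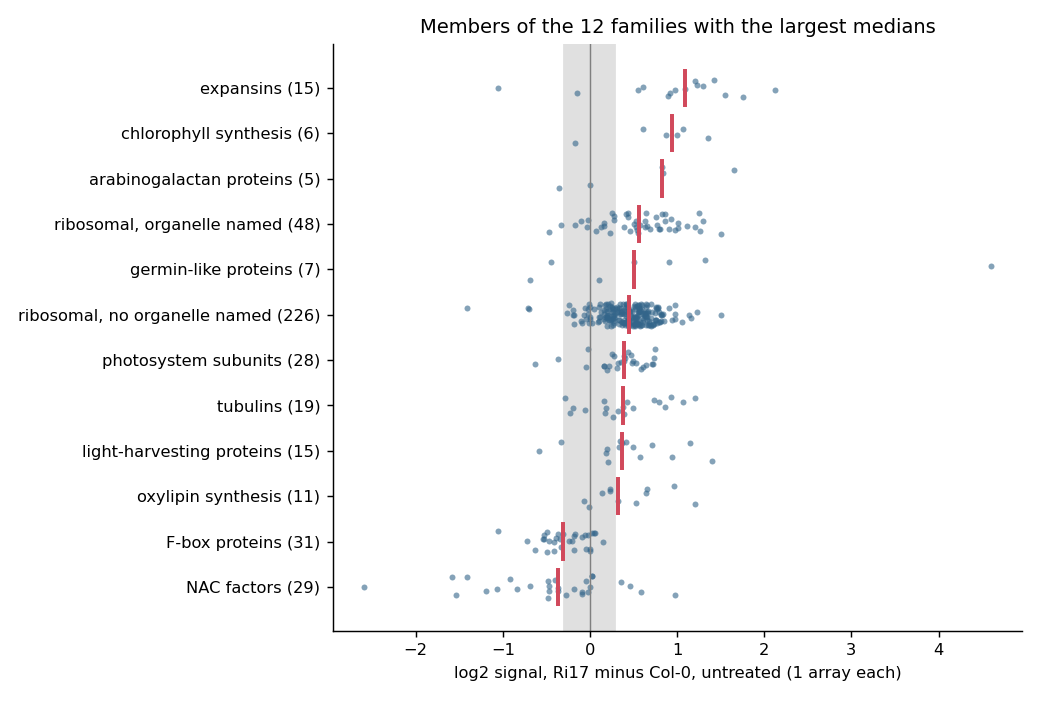
Each point is a kept probe set of one of the 12 families with the largest absolute medians, placed at its log2 signal in untreated Ri17 minus that in untreated Col-0 (1 array each, number of probe sets in parentheses), the red bars are the family medians and the grey band spans the quartiles of all kept probe sets, -0.30 to 0.29. Expansins centre on 1.09 and the 2 ribosomal families on 0.56 and 0.44, while NAC factors and F-box proteins centre on -0.37 and -0.31.

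The 6 kept probe sets of chlorophyll synthesis had a median of 0.94, with 5 above 0 and 2 at least 1 higher (33.3%, against 3.13%). CHLI2 (AT5G45930), a subunit of the magnesium chelatase that commits porphyrin to chlorophyll, measured 466.0 in Col-0 and 1187.3 in Ri17 (1.35). PORB (AT4G27440), a light-dependent protochlorophyllide reductase, measured 448.0 and 940.8 (1.07), and a further protochlorophyllide reductase probe set measured 2375.7 and 4748.9 (1.00). The 2 remaining single-gene members, described only by similarity to the reductase, were near the floor: AT1G64590 at 57.4 and 87.5 (0.61) and AT5G53090 at 42.4 and under the floor in Ri17.

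Proteins of the organelle ribosomes had a median of 0.56 over 48 probe sets, of which 42 were above 0, 8 stood at least 1 higher (16.7%) and 0 stood at least 1 lower. The authors' deposited table called 29 of the 48 Increase (60.4%, against 12.4% of all kept probe sets) and 0 Decrease. The 23 whose description names the plastid or chloroplast had a median of 0.76, with 7 at least 1 higher, and the 4 named as mitochondrial had a median of -0.02, with 2 above and 2 below 0. The chloroplast 50S protein L15 measured 2715.4 in Col-0 and 7683.4 in Ri17 (1.5), and the chloroplast 30S protein S17 measured 3125.9 and 7656.6 (1.29). Among single-gene members, AT5G47190, similar to plastid L19, measured 1562.2 and 3737.3 (1.26), AT3G13120, a 30S protein S10, 3579.0 and 7216.9 (1.01), and AT1G64510, plastid S6, 3177.8 and 6400.9 (1.01). In the other direction were AT1G07830, a mitochondrial ribosomal protein, at 451.1 and 358.9 (-0.33), and AT5G09770, similar to chloroplast L17, at 414.3 and 369.0 (-0.17).

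Subunits of the photosystems, the thylakoid complexes that turn light into electron flow, had a median of 0.39 over 28 probe sets. None was past the threshold of 1, yet 24 of the 28 lay above 0. The authors' deposited table called 19 Increase (67.9%, against 12.4% of all kept probe sets) and 1 Decrease. All 11 photosystem I probe sets were above 0 (0.25 to 0.73), and 13 of 17 for photosystem II. PSBY (AT1G67740) measured 17409.0 in Col-0 and 24210.8 in Ri17 (0.48), PSAE-1 (AT4G28750) 21383.6 and 27992.9 (0.39), and PSAN (AT5G64040) 12698.1 and 15801.8 (0.32). The lower members with a single annotated gene were the plastid-encoded ndhK, whose probe set carries a photosystem II description (2294.3 and 1774.5, -0.37), and PSBW (14650.8 and 14251.1, -0.04). The light-harvesting proteins, which bind the antenna chlorophyll, had a median of 0.37 over 15 probe sets, 13 above 0. They had 11 Increase calls (73.3%) and 1 Decrease call in the authors' deposited table. LHCB4.3 (AT2G40100) measured 1278.2 and 2823.1 (1.14), LHCB4.1 (AT5G01530) 16746.3 and 27366.9 (0.71), and LHCB4.2 (AT3G08940) 15026.9 and 22337.4 (0.57). AT5G58800, described as similar to a light-harvesting pigment protein, lay at 1265.6 and 846.1 (-0.58).

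Photosystem and light-harvesting probe sets are among the brightest on the array, with median Col-0 signals of 14359 and 16212, and bright probe sets stood slightly higher in Ri17 as a whole. After a loess correction of the difference on mean signal the 2 medians were 0.18 and 0.20, and after quantile normalisation the photosystem median was 0.20. The same correction left expansins at 1.15, organelle ribosomal proteins at 0.56 and chlorophyll synthesis at 0.88. Proteins of carbon fixation, a family added after the values were seen, had a median of 0.33 over 12 probe sets with all 12 above 0. The largest differences there belonged to probe sets for subunits of the chaperonin that folds Rubisco, 2377.5 against 5334.0 for an alpha subunit (1.17) and 4026.2 against 8532.9 for a beta subunit (1.08), while the Rubisco small subunit measured 30577.7 and 36523.3 (0.26).

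Ribosomal proteins whose description names no organelle, in the main those of the cytosolic ribosome, were the largest of the families with a median above 0.2. Their median was 0.44 over 226 probe sets, the quartiles were 0.25 and 0.61, and 206 (91.2%) were above 0, against 47.3% of all kept probe sets. Few passed the threshold of 1: 4 higher (1.77%) and 1 lower, shares under the 3.13% and 2.43% of all kept probe sets. The authors' deposited table called 147 Increase (65%, against 12.4% of all kept probe sets) and 3 Decrease. The large and small subunits did not stand apart, with medians of 0.48 over 74 probe sets naming 60S and 0.44 over 47 naming 40S. AT5G23900, a 60S L13, measured 1562.9 in Col-0 and 3430.8 in Ri17 (1.13), AT3G16780, an L19, 591.7 and 1166.7 (0.98), and AT3G53890, a 40S S21, 3036.3 and 5977.7 (0.98). AT5G39850, a 40S S9, lay at 637.6 and 537.6 (-0.25), and AT1G80800, similar to S12, at 100.5 and under the floor in Ri17, at least 1.41 lower. Ribosomal protein genes come in near-identical copies, and 22 probe sets carried a suffix that marks sharing between genes. The 204 without it had a median of 0.45. Aminoacyl-tRNA synthetases, a family added after the values were seen, had a median of 0.27 over 41 probe sets (35 above 0), whereas translation factors, also added then, were at 0.04 over 81 and the proteasome, which degrades proteins, at 0.03 over 44 with 0 Increase and 0 Decrease calls in the authors' deposited table.

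**Figure D2:**
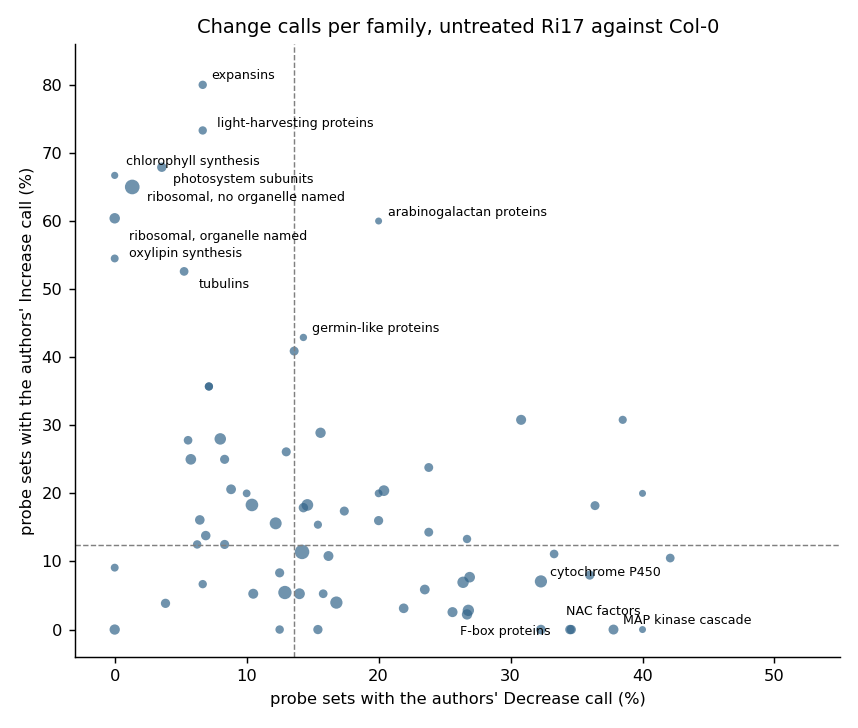
Each point is a family with at least 5 kept probe sets, placed by the share of its probe sets with a Decrease call (x axis, %) and an Increase call (y axis, %) in the authors' deposited table for untreated Ri17 against Col-0, with larger points for larger families and dashed lines at the shares over all kept probe sets (13.6% and 12.4%). Expansins (80% Increase), light-harvesting proteins (73.3%) and photosystem subunits (67.9%) sit at the upper left, and MAP kinase cascade proteins (37.8% Decrease, 0% Increase), NAC factors and F-box proteins at the lower right.

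NAC transcription factors, many of which act in senescence and stress, had a median of -0.37 over 29 probe sets, of which 6 were above 0, 0 stood at least 1 higher and 6 stood at least 1 lower (20.7%, against 2.43%). The authors' deposited table called 10 Decrease (34.5%, against 13.6% of all kept probe sets) and 0 Increase. The furthest was a probe set described as similar to CUC2, at 301.8 in Col-0 and 50.2 in Ri17 (-2.59). Other lower members were bright, among them 2 described as similar to petunia NAM, at 2531.1 against 1102.9 (-1.20) and 2163.4 against 1147.4 (-0.91). NAC014 (AT1G33060), the one member with a single annotated gene, measured 194.5 and 191.0 (-0.03). A floor of 60.9 brought the NAC median to -0.18, and dropping the detection filter brought it to 0.00.

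F-box proteins, which select targets for ubiquitination, had a narrow shift, with a median of -0.31 over 31 probe sets and 4 above 0. Of these probe sets, 1 stood at least 1 lower (3.23%, near the 2.43% of all kept probe sets). The authors' deposited table called 10 Decrease (32.3%, against 13.6% of all kept probe sets) and 0 Increase. AT4G33160 measured 202.9 in Col-0 and 97.8 in Ri17 (-1.05), AT5G01720 314.8 and 191.2 (-0.72), and AT5G43190 1025.4 and 660.6 (-0.63), while AT1G76920 measured 596.6 and 618.8 (0.05). Among the lower members were COI1 at 1077.2 and 749.2 (-0.52) and ORE9, known for strigolactone signalling, at 643.9 and 446.8 (-0.53). The auxin receptor family member described as a putative TIR1 measured 1543.2 and 1371.0 (-0.17). AtFBX14, described as similar to TIR1, lay the other way at 239.4 and 265.7 (0.15), the highest difference in the family. Without a detection filter the F-box median was -0.049.

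MAP kinase cascade proteins, which relay wound and pathogen signals, had a median of -0.25 over 37 probe sets with none past the threshold. The authors' deposited table called 14 of them Decrease (37.8%, against 13.6% of all kept probe sets) and 0 Increase. MEKK1 measured 387.7 in Col-0 and 258.9 in Ri17 (-0.58), and ATMPK5 1297.8 and 847.8 (-0.61). Their median moved between -0.25 and -0.08 over the scalings, floors and filters tried. RING finger proteins had a median of -0.25 over 32 probe sets, with 7 Decrease (21.9%) and 1 Increase in the authors' deposited table. AP2-domain factors, which include the ethylene response factors, were at -0.22 over 52, with 14 Decrease (26.9%) and 4 Increase. The AP2 median was 0.00 without the detection filter. Over all kept probe sets the shares of Decrease and Increase calls in the authors' deposited table were 13.6% and 12.4%. WRKY factors had 9 Decrease (34.6%) and 0 Increase calls of 26, and MYB factors 19 (26.8%) and 2 of 71. Calmodulin-related calcium sensors had 19 (26.4%) and 5 of 72, and homeobox factors 12 (26.7%) and 1 of 45. Cytochrome P450 enzymes had 32 (32.3%) and 7 of 99. The medians of these families lay within 0.2 of 0. Medians of other regulators lay near 0. Basic helix-loop-helix factors, at a median of 0.01 over 18, had 5 Increase (27.8%) and 1 Decrease calls in the authors' deposited table. The bZIP factors, at 0.03 over 24, had 3 (12.5%) and 2. C2H2 zinc fingers were at 0.02 over 16 and MADS factors at 0.00 over 16. Large signalling and defence families lay near 0, with receptor kinases at -0.05 over 211 and disease resistance proteins at -0.09 over 147.

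Among jasmonate genes, synthesis and signalling lay on opposite sides of 0. Only 6 of 19 listed synthesis symbols and 4 of 11 listed signalling symbols could be matched to a probe set by name. The 6 synthesis genes had a median of 0.42, with 5 above 0 and none past the threshold. LOX2, the plastid lipoxygenase, measured 5727.3 in Col-0 and 8971.0 in Ri17 (0.65), AOS, the allene oxide synthase, 3299.5 and 4759.2 (0.53), and an allene oxide cyclase 490.5 and 610.9 (0.32). The probe set described as 12-oxophytodienoate-10,11-reductase measured 1282.0 and 2499.9 (0.96). Enzymes that act on the precursor in the peroxisome lay on either side, OPCL1 at 650.1 and 762.9 (0.23) and AIM1 at 2138.9 and 1721.1 (-0.31). The wider oxylipin family, 11 probe sets that include 4 of these genes, had a median of 0.32 with 9 above 0. It had 6 Increase calls (54.5%, against 12.4% of all kept probe sets) and 0 Decrease calls in the authors' deposited table. JMT, which makes methyl jasmonate, measured 700.7 and 1080.7 (0.63).

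In signalling, MYC4 measured 2672.6 in Col-0 and 1595.0 in Ri17 (-0.74) and MYC3 449.3 and 272.5 (-0.72), both activators of jasmonate responses. ORA47, an AP2 factor that activates jasmonate synthesis, measured 84.8 and 115.7 (0.45). Output genes were divided. VSP1, a vegetative storage protein of the MYC branch, measured 318.6 and 1039.3 (1.71), while RNS1, a wound-inducible ribonuclease, measured 421.7 and 154.9 (-1.44). The defensin gene PDF1.2A measured 92.1 and 374.1 (2.02), and its paralogue PDF1.2B 81.1 (Absent) and 102.7 (at least 0.34). PDF1.4, another defensin gene, measured 925.8 and 217.6 (-2.09). ERF1 was under the floor in Col-0 and Absent in Ri17, and BSMT1 and THI2.1 were under the floor on both arrays. The names LOX2, AOS, allene oxide cyclase, 12-oxophytodienoate-10,11-reductase, COI1, VSP1, RNS1 and ERF1 come from the deposited descriptions. The probe sets of VSP1 and PDF1.2B carry a suffix that marks sharing between genes, so their values may not belong to a single gene.

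**Figure D3:**
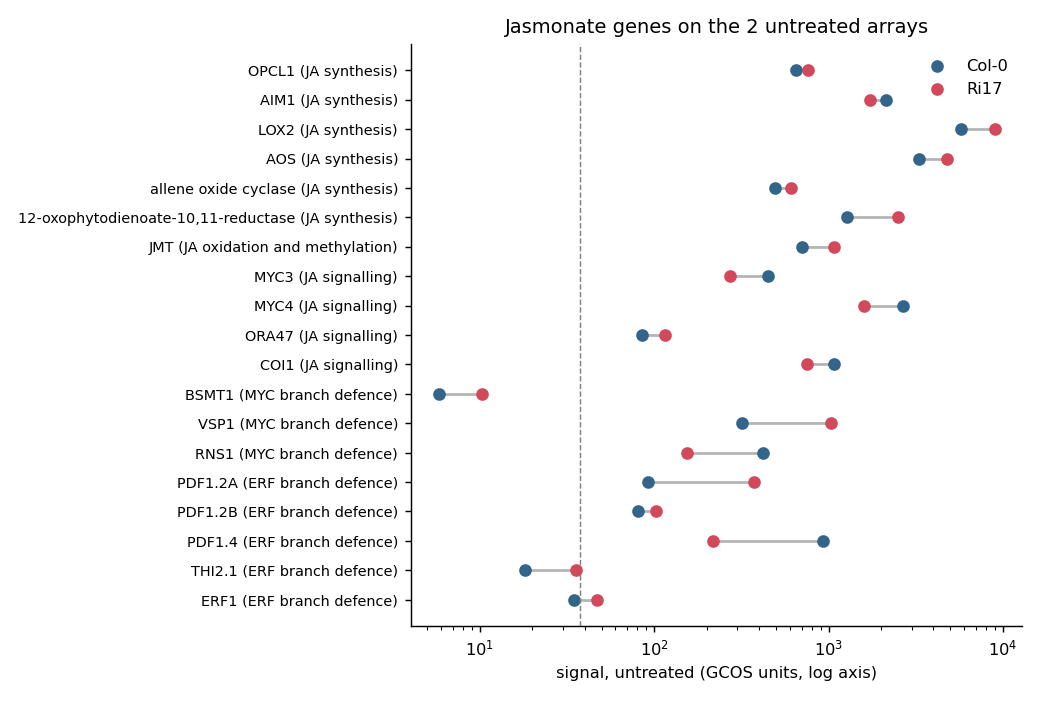
Signals of the kept jasmonate genes on the untreated Col-0 (blue) and Ri17 (red) arrays are plotted on a log axis in GCOS units, 1 array per genotype, with the floor of 37.7 as a dashed line. Ri17 lies to the right for LOX2, AOS, VSP1 and PDF1.2A and to the left for MYC3, MYC4, COI1, RNS1 and PDF1.4.

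The other pathway lists held few members that could be matched to a probe set by name. Of 9 early wound and touch genes 5 were below 0, with a median of -0.27. TCH4, a touch-induced xyloglucan enzyme, measured 246.8 in Col-0 and 96.5 in Ri17 (-1.35), ZAT10, a zinc finger repressor, 499.7 and 253.2 (-0.98), and WRKY53, a senescence regulator, 920.8 and 545.0 (-0.76). Of 7 genes of abscisic acid and cold 5 were above 0 and 2 stood at least 1 higher. COR15A and COR15B, which encode proteins that protect chloroplast membranes in the cold, measured 182.0 against 775.1 (2.09) and 143.7 against 355.0 (1.3). In salicylate defence GRX480, a glutaredoxin that binds TGA factors, measured 136.2 and 357.4 (1.39) and SAG101 330.9 and 214.0 (-0.63). All 3 flavonoid and anthocyanin genes of the list were below 0, and UF3GT was the furthest (186.3 in Col-0 and 112.3, Absent, in Ri17). The wider flavonoid family had a median of -0.02 over 54 probe sets, with 5 at least 1 higher (9.26%) and 2 at least 1 lower (3.7%). Over all kept probe sets these shares were 3.13% and 2.43%. The family had 11 Increase and 11 Decrease calls in the authors' deposited table (20.4% each, against 12.4% and 13.6%). Of 4 glucosinolate genes 3 were below 0, from BCAT4 at 5340.9 and 3168.0 (-0.75) to the myrosinase TGG2 at 7139.2 and 12028.2 (0.75). The TGG2 probe set carries a suffix that marks sharing between genes. Of 4 clock genes 3 were below 0 (-0.47 to 0.16). Of 11 listed heat shock symbols 1, HSP101, was matched to a probe set by name, and it measured 120.1 and 264.7 (1.14). The wider heat shock family had a median of 0.04 over 115 probe sets. Of these, 8 stood at least 1 higher (6.96%, against 3.13% of all kept probe sets) and 2 at least 1 lower (1.74%, against 2.43%).

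Single genes with the largest differences, among those above the floor on both arrays, included some members of the wall families. AT1G11850, an unknown protein, measured 44.3 (Absent) in Col-0 and 766.9 in Ri17 (at least 4.11), and AT1G60590, a putative polygalacturonase, 100.3 and 1726.7 (4.11). AT2G10940, an unknown protein, measured 540.2 and 5285.0 (3.29). CHIL (AT5G05270), a chalcone isomerase-like protein that promotes flavonoid synthesis, measured 155.3 and 1300.9 (3.07), AT4G18970 85.7 and 699.4 (3.03), and STOMAGEN (AT4G12970), a secreted peptide that promotes stomatal development, 137.9 and 1058.1 (2.94). AT5G48490, AT5G13140, AT3G15680 and AT1G13650 followed, between 2.88 and 2.37.

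Among the lowest was AT2G44240, an unknown protein, at 772.1 in Col-0 and 43.6 (Absent) in Ri17, a difference at least as low as -4.15. Also among them were 2 neighbouring pEARLI 1-like proteins of the lipid transfer class. AT4G12490 measured 6916.5 and 390.7 (-4.15), and AT4G12500 measured 672.4 and 49.9, the latter signal Absent (at least as low as -3.75). Neighbouring members of this class can be alike in sequence, and whether their probe sets separate them was not tested. AT2G37130, a peroxidase, measured 778.2 and 118.9 (-2.71), AT5G39520 330.2 and 47.0 (-2.81) and AT1G62510, a proline-rich protein, 712.2 and 124.8 (-2.51). AT5G57785, AT3G14280, AT2G30930 and AT5G20790 followed, between -2.37 and -2.19.

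The 4 treated pairs of arrays share no array with the untreated pair, and the same families did not carry the same sign there. The expansin median, 1.09 untreated, was -0.02 at 1 h and -0.24 at 4 h of MeJA, and -0.24 at 30 min and -0.71 at 60 min after wounding. Organelle ribosomal proteins went from 0.56 untreated to between -0.29 and -0.02, photosystem subunits from 0.39 to between -0.46 and -0.08, light-harvesting proteins from 0.37 to between -0.42 and -0.02, and chlorophyll synthesis from 0.94 to between -0.30 and -0.08. Ribosomal proteins with no organelle named were at -0.06, -0.20 and -0.27 and, 60 min after wounding, at 0.14. NAC factors, at -0.37 untreated, were between 0.08 and 0.50 in the treated pairs, and F-box proteins between -0.15 and 0.10. Across all kept probe sets, which are not independent replicates, the untreated difference correlated with each treated one at Pearson's r between -0.20 and 0.01 and Spearman's rho between -0.23 and -0.05. Signals of some clock genes also lay apart. CCA1 measured 5657.1 (Col-0) and 4972.8 (Ri17) untreated and 100.7 to 1091.2 on the treated arrays. COL2 measured 4920.0 and 5481.6 untreated and 53.6 to 425.2 treated. GI and FKF1 untreated lay inside their treated ranges. The part of clock phase in the contrasts of untreated with treated arrays was not tested.

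**Figure D4:**
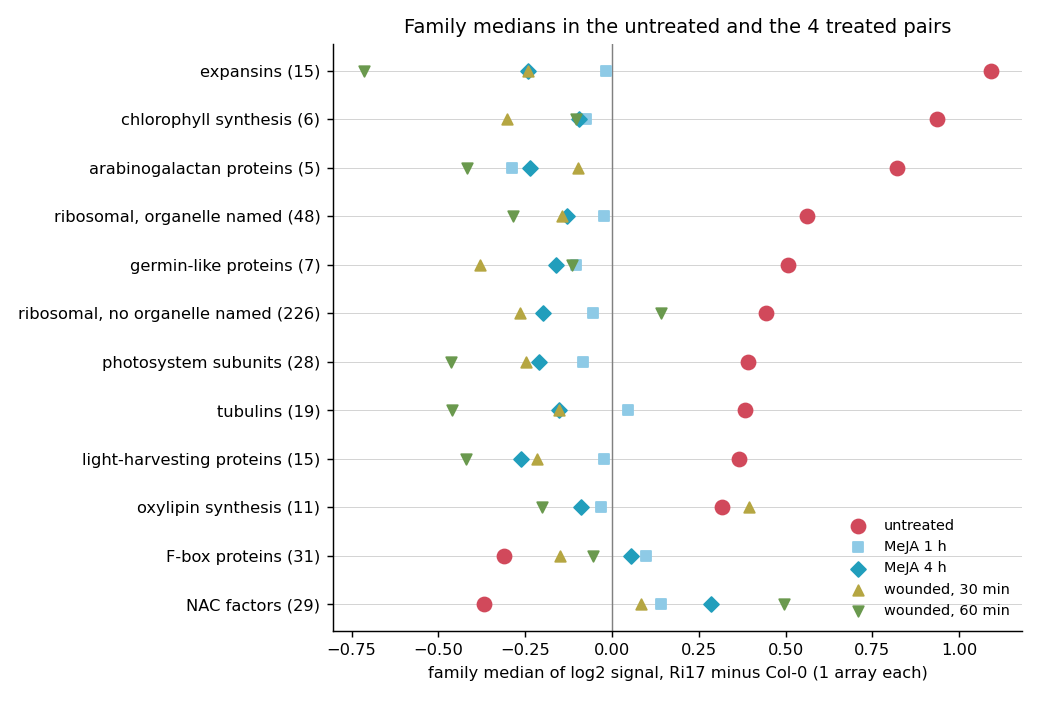
Family medians of the log2 difference Ri17 minus Col-0 are shown for the untreated pair of arrays (red) and for the 4 treated pairs (blue for MeJA, yellow and green for wounding), with the number of kept probe sets in parentheses and no error bars because each pair is 1 array per genotype. The untreated value lies to the right of all 4 treated values in 9 of the families, from expansins to light-harvesting proteins, and to the left of all 4 for F-box proteins and NAC factors.

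The untreated difference of 13 of 15 expansin probe sets lay above all 4 treated differences, as did that of 39 of 48 organelle ribosomal, 25 of 28 photosystem, 13 of 15 light-harvesting and 165 of 226 ribosomal probe sets with no organelle named, where 26.2% of all kept probe sets did. For NAC factors 19 of 29 lay below all 4, where 27.2% of all did. The families were picked by their untreated medians, which enter these counts, so the counts describe the members and support nothing further. This departure was tested gene by gene in limma, with the scatter of the genotype difference among the 4 treated pairs as the error (3 residual degrees of freedom). No probe set passed an adjusted p of 0.05 (0%, 0 of 15382), 2063 had an unadjusted p under 0.05, and the lowest adjusted p was 0.0727, for AT4G18970 (3.76 ± 0.27 SE above the treated mean). When only probe sets Present on both untreated arrays were tested, 3 passed: AT4G18970 and a flavonol synthase (limma adjusted p = 0.0378 each) and the germin-like probe set described above (limma adjusted p = 0.0433). In limma EXPB1 stood 2.53 ± 0.44 (SE) above its treated mean, CHLI2 1.74 ± 0.31 and the polygalacturonase AT1G60590 4.37 ± 0.55, each with an adjusted p of 0.264.

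Unadjusted counts from the same test rest on the untreated values that picked the families, and are likewise only a description. The limma test took 7.64% of all kept probe sets as higher untreated than treated and 5.77% as lower. For expansins it took 11 of 15 as higher and 1 as lower, for organelle ribosomal proteins 27 of 48 and 0, for light-harvesting proteins 9 of 15 and 1, for photosystem subunits 12 of 28 and 0, and for ribosomal proteins with no organelle named 52 of 226 and 0. For NAC factors it took 1 of 29 as higher and 5 as lower. The mean genotype difference over the treated pairs gave 0 limma calls (0%) at an adjusted p of 0.05 as well, with 1546 probe sets at an unadjusted p under 0.05 (5.22% higher and 4.83% lower).

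Signals of single members on all 10 arrays showed how far the untreated pair lay from the treated ones. EXPB1 was at 16.5 and 31.6 (Col-0 and Ri17) at 1 h of MeJA, 3.1 and 1.9 at 4 h, 218.1 and 116.9 at 30 min after wounding and 61.8 and 35.4 at 60 min, so that untreated Ri17 (247.8) was the highest of the 10. CHLI2 was at 725.8 and 718.0, 1102.8 and 731.9, 1828.0 and 1388.6, and 1610.4 and 1099.6 in the same order, so that untreated Col-0 (466.0) was the lowest and the treated Ri17 arrays each lay below their Col-0 partner. VSP1 was between 6289.3 and 27657.2 on every treated array, far above both untreated signals, and PDF1.2A was higher in Ri17 than in Col-0 in all 5 conditions, by 0.22 to 2.02. The pEARLI 1-like gene AT4G12490 was lower in Ri17 also at 30 min (6573.9 and 478.6) and 60 min (7415.2 and 1381.9) after wounding, while both MeJA times had signals of 148.3 or less. AT2G44240 went the other way after wounding, with Ri17 higher by 2.94 and 2.64.

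Levels of whole families on single arrays were compared next. Relative to the mean of each probe set over the 10 arrays, organelle ribosomal proteins had a median of -0.43 on the untreated Col-0 array, the lowest of the 10, and of 0.21 on the untreated Ri17 array, beside -0.23 to 0.21 on the other 8. Chlorophyll synthesis (-0.86), tubulins (-0.61) and oxylipin synthesis (-1.7) were also lowest on untreated Col-0. For photosystem subunits untreated Col-0 and Ri17 at 4 h of MeJA were both at -0.33, the lowest values, and untreated Ri17 (0.10) lay inside the range of the other arrays. Expansins differed from this order, with untreated Ri17 the highest of the 10 arrays at 1.06 and untreated Col-0 (-0.23) inside the range of the treated arrays. NAC factors were at 0.53 on untreated Col-0, above every other array but Ri17 at 60 min after wounding (0.77), and at 0.03 on untreated Ri17.

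**Figure D5:**
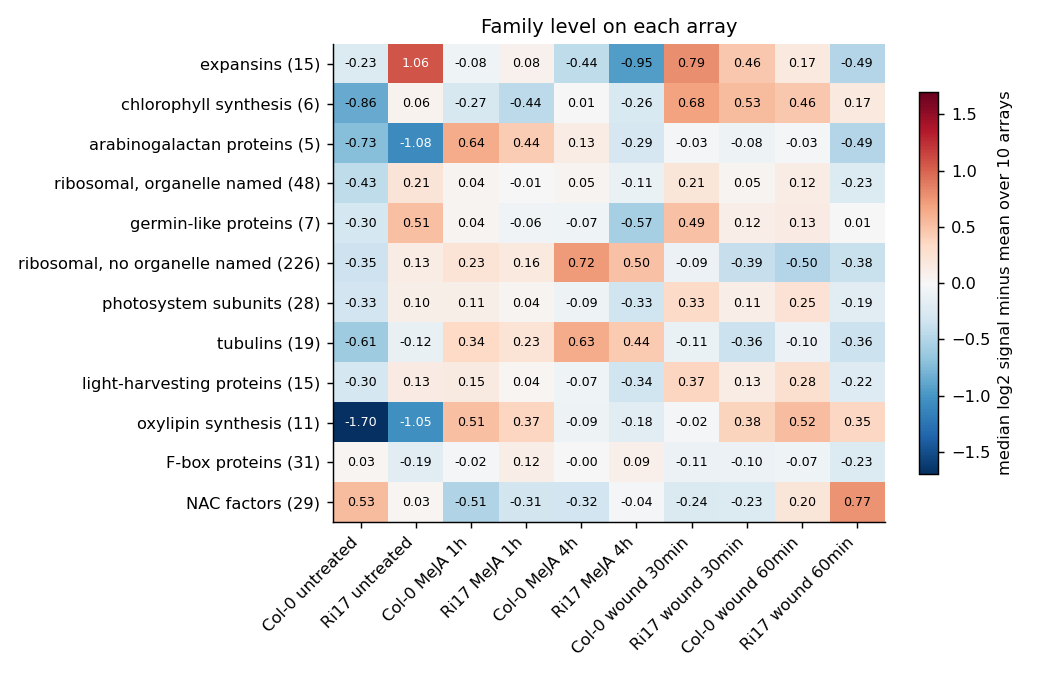
Each cell gives the median over the kept probe sets of a family (number in parentheses) of the log2 signal on 1 array minus the mean of that probe set over all 10 arrays, with red for higher and blue for lower. In the first column, untreated Col-0, organelle ribosomal proteins (-0.43), chlorophyll synthesis (-0.86) and tubulins (-0.61) are at their lowest, and in the second, untreated Ri17, expansins are at their highest (1.06).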

How the data were processed

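Signal intensities, detection calls and detection p-values of 10 arrays were deposited, made with GCOS per the submitters' processing notes, and the 2% trimmed mean of every array was 500.1. The authors' deposited table also held log2 ratios, change calls and change p-values of Ri17 over Col-0, the last not used. Here, intensities were floored at 37.7, the 75th percentile of Absent signals, and log2 values taken. Depth does not apply to arrays; the number of arrays, 1 per group, limits precision. The untreated difference had no test. limma 3.58.1 in R 4.3.3 (condition, genotype and an untreated-by-genotype term, two-sided, Benjamini-Hochberg) compared it with the treated pairs and was tested on simulated data, where a first run with 2 sizes of change recovered none. After log2 changes of 4 were added, 91 of 100 of that size, 51 of 100 of size 2 and 1 of 100 of size 1 were recovered. Recovery of a given size therefore depended on what else was simulated. A lack of limma calls does not show that changes of 2 or less were absent, since the first run, with sizes 1 and 2, recovered none. Whether arrays came from separate plants is not stated.

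Families are words in the descriptions. Up to 3 genes furthest with and 2 against the median were named in the 12 families with the largest medians, plus the 10 highest and 10 lowest genes, all jasmonate genes and up to 3 per other list. Of 22810 probe sets, 13513 have 1 annotated gene, 13436 of them matched to TAIR10.1. Members without one are called by their description and were chosen after their values were seen, as were the splits within families, corrections to the family words and 7 of the families. Members and lists were chosen with earlier results of these data known. Words for PPR, 2-oxoglutarate oxygenase and VQ proteins matched no description. Alternatives were scaling, floor, filter, ratio source and pairs left out.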

Additional observations from a re-analysis of the deposited data

Results flagged for a closer look

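In 8 of the 12 families described most fully, the untreated median had the sign opposite to that of every treated pair. The untreated values were 1.09 for expansins, 0.94 for chlorophyll synthesis, 0.82 for arabinogalactan proteins, 0.56 for organelle ribosomal proteins, 0.51 for germin-like proteins, 0.39 for photosystem subunits and 0.37 for light-harvesting proteins, all with negative medians in the 4 treated pairs, and -0.37 for NAC factors, with positive ones. The difference was not tested at the level of families. Averaged over both wounded pairs the medians of the first 7 ran from -0.43 to -0.22, and over both MeJA pairs from -0.32 to -0.08. For NAC factors they were 0.36 and 0.35.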

How the results depend on the processing

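Medians of 19 families (those beyond 0.2 on either side of 0) were recomputed under 9 alternatives, the loess correction having been added after the values were seen. Of 171 values, 134 stayed within 1 SD of the treated medians, 36 moved further and 1 changed sign. That 1 was the arabinogalactan median, -0.18 with probe sets Present on both untreated arrays. Without a detection filter expansins were at 0.58, germin-like proteins and NAC factors at 0.00 and F-box proteins at -0.049. With a floor at the 90th percentile of Absent signals chlorophyll synthesis was at 0.76, germin-like proteins at 0.10 and NAC factors at -0.18. Quantile normalisation gave 0.20 for photosystem subunits and 0.38 for germin-like proteins, and loess 0.18 for photosystem subunits and 0.20 for light-harvesting proteins. Germin-like proteins were at 0.91 without a floor and with probe sets Present on both untreated arrays. The log2 ratios of the authors' deposited table gave 1.1 for chlorophyll synthesis and 0.90 for germin-like proteins. The counts of 481 higher and 374 lower probe sets became 43 and 34 at a difference of 2, and 1903 and 2093 by the change calls of the authors' deposited table. The limma comparison with the treated pairs made 3 calls with probe sets Present on both untreated arrays and 0 in the other settings, pairs left out included. The cause of these changes was not tested beyond what each alternative leaves out. No paired analysis was possible because the labels give no replicate numbers and each group has 1 array; the limma comparison already holds condition as a block.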
